A study of Bos taurus with 13 samples.

Results

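bta-miR-204, bta-miR-592 and bta-miR-708 are 3 miRNAs of low abundance, and each gene lies inside a very long protein-coding gene. They were described in the extracellular vesicles (EVs) of bovine follicular fluid, the fluid that surrounds the oocyte in its follicle. The 3 were chosen by name, because their values in transient cows differed from those in heifers, out of 311 mature miRNAs listed for any group. Their levels in transient cows and in heifers, and all differences that involve these pools, are therefore given as a description, without a test. The always negative and always positive cows described below had no part in the choice, and tests of the 3 miRNAs are given only between them. miR-708 had too few reads there for the main test and has an exact permutation test alone.

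Follicular fluid of Holstein Friesian animals had been pooled, fluid with blood contamination or from cystic ovaries left out, and each of 13 pools gave 1 small RNA library of its EVs. Transient cows (TCs) were in negative energy balance at weeks 5 to 6 after calving (3 pools, 11 cows) and in positive energy balance at weeks 9 to 10 (3 pools, 7 cows). Always negative cows (ANCs) and always positive cows (APCs) kept their energy status and were sampled at weeks 5 to 6, each as 2 pools of 2 cows in all. The heifers (3 pools, 8 animals) had not calved and were in positive energy balance, so that all cow groups differ from them in lactation and parity, which cannot be told apart, and the ANCs and the TCs at weeks 5 to 6 also in energy status. All animals were female, and neither an age nor a treatment is given in the sources used here. They do not state either which animals went into which pool, or whether the TCs of the later weeks were those of the earlier weeks, so that p-values measure the spread between pools, which may be partly technical.

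A miRNA is a short RNA that guides Argonaute proteins to messenger RNAs, mostly through its seed, bases 2 to 8 from the 5′ end. An intronic miRNA is cut from the intron of a host gene and can be transcribed with it or from a promoter of its own. EVs carry miRNAs out of cells, and those of follicular fluid can come from granulosa and theca cells, from the oocyte's surroundings or from blood plasma. In a pooled fluid, fewer vesicles or cells of 1 origin and fewer copies in each of them cannot be told apart.

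The host genes were looked up in the RefSeq gene table of the bovine assembly ARS-UCD2.0. The files were made on another build, UMD3.1, and no coordinates are given for that reason. The miR-204 gene lies on chromosome 8 within TRPM3, which encodes a cation channel, and TRPM3 spans 607 kb. The miR-592 gene lies on chromosome 4 within GRM8, the gene of a metabotropic glutamate receptor, which spans 849 kb. The miR-708 gene lies on chromosome 29 within TENM4, the gene of a teneurin, a large transmembrane protein, and this host spans 851 kb. All 3 hosts were thus longer than 600 kb, a length that lies just under the shortest of them, so that the share of genes reaching it is a description only. It was reached by 186 of the 21666 protein-coding genes of the table (0.858%), whose median length was 17.0 kb. The table lists gene spans without exons, and the position within an intron is taken from what is known of these genes. No sequence of the miRNAs was analysed here.

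The values rest on few reads. Reads were recovered from the step between deposited values, which is worth 1 read, and each of the 3681 values came within 0.1 read of a whole number. A library held 145030 to 421435 such reads, with a median of 327359, and ANC replicate 2 was the shallowest. In all 13 libraries together miR-204 had 281 reads (11 to 58 per library), miR-592 had 216 reads (5 to 41) and miR-708 had 183 reads (1 to 51). Ordered by abundance among the 262 miRNAs listed for all groups, miR-204 ranked between 148 and 208, miR-592 between 150 and 244, and miR-708 between 153 and 259. Levels are given as CPM, a count scaled to a common library total, after all 13 libraries had been scaled together by TMM, a trimmed mean of log ratios between libraries. On this scale 3 reads, taken as the smallest visible amount, stood at 7.3 to 20.1 CPM, and 1 value lay under that floor, miR-708 in TC replicate 3 at weeks 5 to 6. Intervals on reads are exact Poisson intervals (95%) and, like the floor, cover counting error only. The gonadal miRNA miR-202 stood at 2982 to 8014 CPM and was found in each of the 13 pools.

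miR-204, known from the differentiation of epithelia such as the retinal pigment epithelium, had its highest level in heifers. The heifer pools stood at 143, 145 and 127 CPM (29, 58 and 47 reads). The TCs stood at 37.7, 37.0 and 48.1 CPM at weeks 5 to 6 (11, 13 and 14 reads) and at 43.8, 68.1 and 44.6 CPM at weeks 9 to 10 (18, 19 and 17 reads). Each TC pool was thus below each heifer pool, and the TC times overlapped. The ANC pools stood at 47.5 and 114 CPM (12 and 17 reads), and the APC pools at 48.0 and 40.1 CPM (14 and 12 reads). The 114 CPM of ANC replicate 2, the shallowest library, was the highest value in a cow pool and still lay under the lowest heifer pool, but its interval of 66.3 to 182 CPM covers all 3 heifer values. In order of their means the groups were heifers (138 ± 10.1 CPM, SD, n = 3), ANCs (80.7 ± 46.9, n = 2), TCs at weeks 9 to 10 (52.2 ± 13.8, n = 3), APCs (44.1 ± 5.63, n = 2) and TCs at weeks 5 to 6 (40.9 ± 6.21, n = 3). The 4 cow groups overlapped from neighbour to neighbour in this order, so that only the step from heifers to cows separated the pools.

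miR-708, best known from work on cell migration, was highest in heifers as well. The heifer pools stood at 64.2, 62.4 and 137 CPM (13, 25 and 51 reads), and replicate 3 was 2.2 times as high as the lowest of them. The TCs stood at 37.7, 19.9 and 3.43 CPM at weeks 5 to 6 (11, 7 and 1 reads). The single read of replicate 3 has an interval of 0.0253 to 5.57 reads, and this library was not shallow, with 363025 reads. At weeks 9 to 10 the TCs stood at 26.8, 50.2 and 31.5 CPM (11, 14 and 12 reads). The ANC pools were nearly equal, at 27.7 and 26.8 CPM (7 and 4 reads), and so were the APC pools, at 48.0 and 43.4 CPM (14 and 13 reads). The counting intervals of these 4 values are wide, from 7.3 to 68.6 CPM for ANC replicate 2, so that the small spread of either pair is no measure of its precision. The means were 88.0 ± 42.8 CPM (SD, n = 3) in heifers, 45.7 ± 3.26 (n = 2) in APCs, 36.2 ± 12.4 (n = 3) in TCs at weeks 9 to 10, 27.3 ± 0.672 (n = 2) in ANCs and 20.3 ± 17.1 (n = 3) in TCs at weeks 5 to 6. The highest cow pool (50.2 CPM) lay below the lowest heifer pool (62.4 CPM), and neighbouring cow groups overlapped. Further apart in the order, the APC pools lay above those of the TCs at weeks 5 to 6, as was so in either direction for 14.6% of 247 miRNAs, and above those of the ANCs, as was so for 42.9%.

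miR-592, studied mainly in tumours and nervous tissue, followed another order and was highest in TCs at weeks 9 to 10. These pools stood at 85.1, 147 and 99.8 CPM (35, 41 and 38 reads). At weeks 5 to 6 the TCs stood at 24.0, 34.1 and 41.2 CPM (7, 12 and 12 reads), within the range of the heifers except for a slightly higher replicate 3. The heifer pools stood at 24.7, 15 and 40.4 CPM (5, 6 and 15 reads). The ANC pools lay between, at 71.3 and 46.9 CPM (18 and 7 reads), and the APC pools stood at 37.7 and 30.1 CPM (11 and 9 reads). The means were 111 ± 32.4 CPM (SD, n = 3) in TCs at weeks 9 to 10, 59.1 ± 17.3 (n = 2) in ANCs, 33.9 ± 5.43 (n = 2) in APCs, 33.1 ± 8.65 (n = 3) in TCs at weeks 5 to 6 and 26.7 ± 12.8 (n = 3) in heifers. The TCs at weeks 9 to 10 did not overlap with the ANCs, as was so for 27.5% of 247 miRNAs, nor the ANCs with the APCs, as was so for 42.9%, whereas the APCs, the TCs at weeks 5 to 6 and the heifers overlapped.

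**Figure D1:**
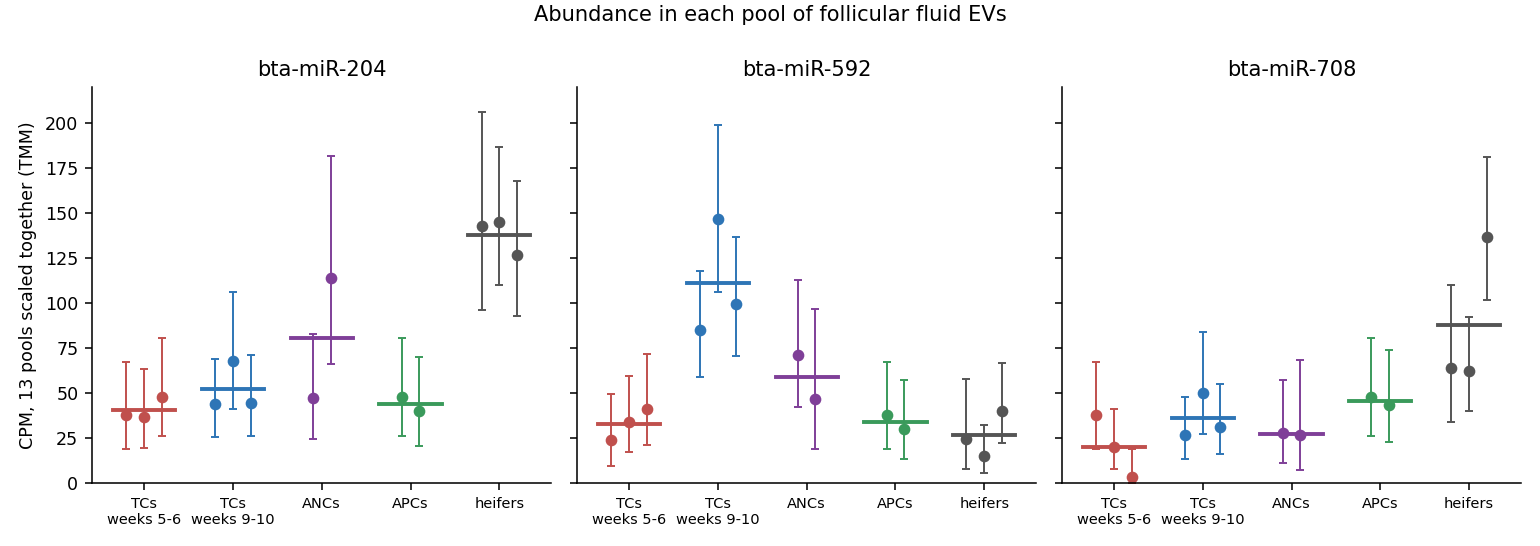
Abundance of miR-204, miR-592 and miR-708 in each of 13 pools, in CPM after all libraries were scaled together. Points are pools in the order of their replicate numbers, whiskers are exact Poisson intervals (95%) of the reads, and horizontal bars are group means. All 10 cow pools of miR-204 and miR-708 lie below the 3 heifer pools, while miR-592 is highest in the 3 TC pools of weeks 9 to 10.

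Of the 247 miRNAs with enough reads across the 13 pools, 8 (3.24%) had all 10 cow pools below all heifer pools. These included miR-204 and miR-708, for which the TC pools had entered the choice, and also miR-1, miR-151-3p, miR-155, miR-186, miR-223 and miR-425-5p. A further 3 (1.21%), miR-25, miR-660 and miR-6518, had all cow pools above all heifer pools. The pattern of miR-592 was shared by 1 other miRNA, miR-19a, and these 2 of 247 (0.81%) had all TC pools of weeks 9 to 10 above the pools of the other 4 groups. These TC pools had entered the choice of miR-592. With the library totals in place of TMM the edges stayed apart, the highest cow pool at 117 CPM and the lowest heifer pool at 136 CPM for miR-204, and 49.3 and 65.8 CPM for miR-708.

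The proportions of the 3 miRNAs within 1 library do not depend on how libraries are scaled. In the TCs at weeks 9 to 10 miR-592 held 54.7%, 55.4% and 56.7% of the reads of the 3 miRNAs (64 to 74 reads per library). In the heifers it held 10.6%, 6.74% and 13.3% (47 to 113 reads), and in the TCs at weeks 5 to 6 it held 24.1%, 37.5% and 44.4% (27 to 32 reads). The ratio of miR-592 to miR-204 reads was 1.94 to 2.24 in TCs at weeks 9 to 10, 0.636 to 0.923 at weeks 5 to 6 and 0.103 to 0.319 in heifers, groups on which both miRNAs had been chosen. It was 0.75 to 0.786 in APCs, within the range of the TCs at weeks 5 to 6. The ANC pools stood far apart, at 1.5 and 0.412, on either side of the APCs. The ratio of miR-708 to miR-204 reads was 0.431 to 1.09 in heifers, 1.0 to 1.08 in APCs and 0.611 to 0.737 in TCs at weeks 9 to 10. It was 0.235 to 0.583 in ANCs and 0.0714 to 1.0 in TCs at weeks 5 to 6. The numerator of the TC library with the lowest ratio was 1 read.

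**Figure D2:**
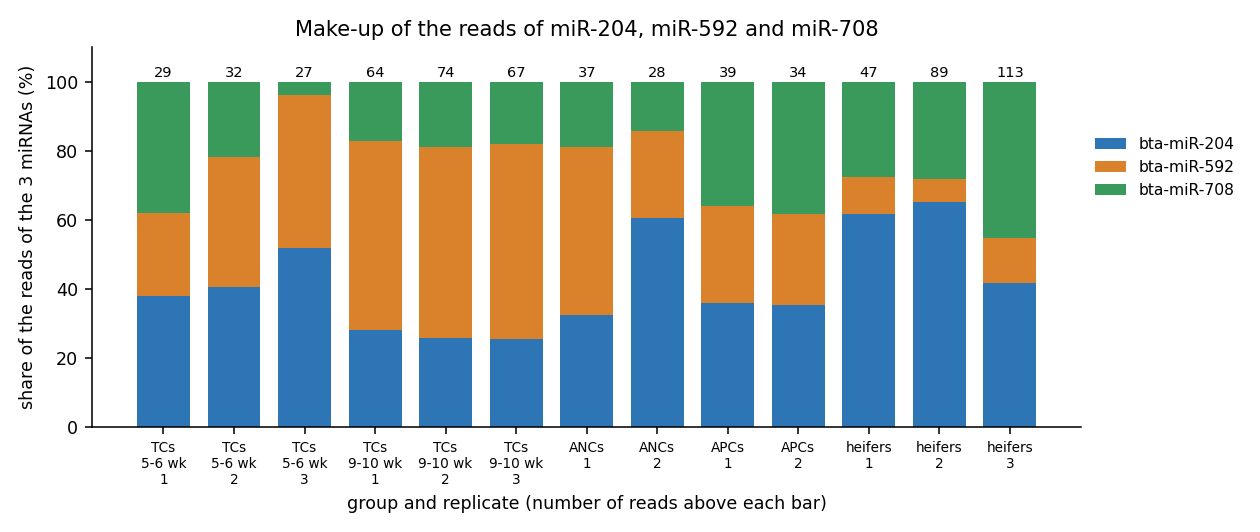
Share of miR-204, miR-592 and miR-708 in the reads of these 3 miRNAs, in percent, for each of 13 libraries (group and replicate on the horizontal axis, number of reads above each bar). miR-592 takes 54.7% to 56.7% in the TCs at weeks 9 to 10 and 6.74% to 13.3% in the heifers.

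The ANCs and the APCs were sampled at the same weeks and differ in energy status, and neither entered the choice of the 3 miRNAs. This comparison therefore allows a test. The libraries of both groups were scaled together and compared with limma on log2(CPM + 5), and a miRNA was called when its log2 difference reached 1 in either direction with p under 0.05 and when its p adjusted after Benjamini and Hochberg did not exceed 0.25. limma called 0 of 207 miRNAs (0%), with 17 at an unadjusted p-value under 0.05, and edgeR's quasi-likelihood test called 0 and DESeq2 called 6. miR-592 was higher in the ANCs by 0.73 on the log2 scale (SE 0.53, 95% interval -0.63 to 2.08, limma adjusted p = 0.635). Its pools did not overlap, as was so for 43.5% of the tested miRNAs. miR-204 was higher in the ANCs by 0.72 (SE 0.61, 95% interval -0.84 to 2.29, limma adjusted p = 0.702). This value rests on the shallow ANC replicate 2, without which it was 0.12, and it was 1.32 without ANC replicate 1. Between replicates 1 of both groups alone it was -0.01. miR-708 had too few reads for the filter in these 4 libraries and stood at -0.61 without a limma test. An exact two-sided permutation test with 2 pools against 2 cannot go below 0.333, the value reached by miR-592 and miR-708, and miR-204 gave 0.667. The intervals of miR-592 and miR-204 reach from below 0 to above 2 on the log2 scale, so that no difference and large differences are both covered.

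The TCs changed from negative to positive energy balance between the sampling times. The 3 miRNAs had been chosen on these same pools against heifers, so that their differences between the times are a description too. In the libraries scaled for this comparison miR-592 stood at 112 ± 27.9 CPM at weeks 9 to 10 and at 33.7 ± 10.2 CPM at weeks 5 to 6 (SD, n = 3 pools each), 1.60 higher on the log2 scale (SE 0.46) or 3.04-fold. The pools did not overlap, as in 13.4% of 224 tested miRNAs. Over all miRNAs limma called 0 of the 224 (0%), with 12 at an unadjusted p-value under 0.05, edgeR's quasi-likelihood test called 0, and DESeq2 called 1. That 1 was miR-592, and since it was chosen on these pools nothing is read from the call.

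The pools of the TC times overlapped for miR-204 and miR-708. The difference was 0.31 for miR-204 (SE 0.44) and 0.97 for miR-708 (SE 0.64), and the latter was 0.30 when the pool with 1 read was left out. The RNA of replicates 1 was measured on 1 day and that of replicates 2 and 3 on the next. Within the first day miR-592 was higher at weeks 9 to 10 by 1.64 and within the second by 1.57, whereas miR-708 stood at -0.43 and 1.63, with opposite signs.

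**Figure D3:**
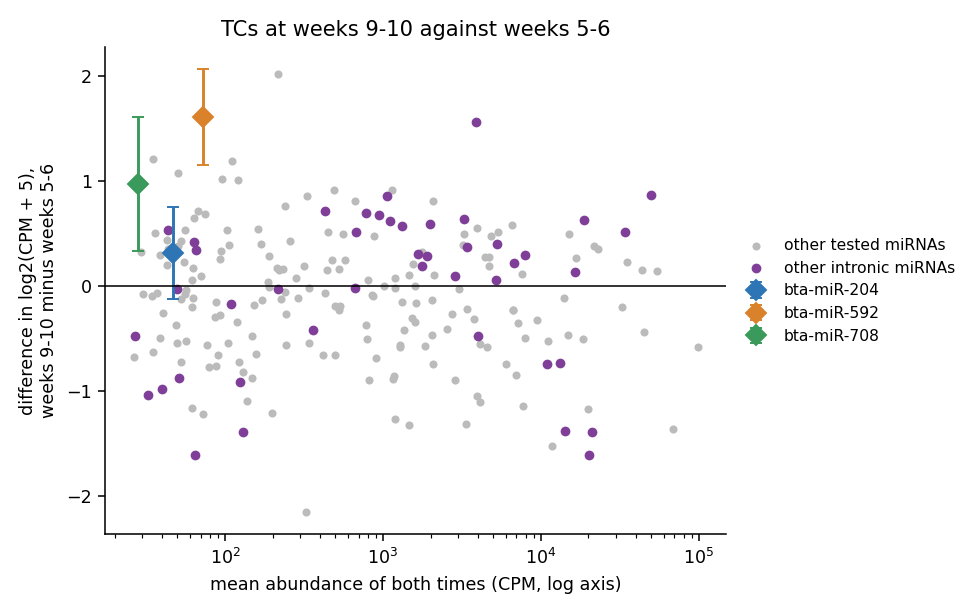
Difference between TCs at weeks 9 to 10 and weeks 5 to 6 in log2(CPM + 5), against mean abundance in CPM (log axis), for 224 tested miRNAs. Diamonds with standard errors are miR-204, miR-592 and miR-708, and purple points are other intronic miRNAs. miR-592 lies at 1.60 among the largest positive differences, and miR-204 at 0.31.

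Against heifers, the cow groups were compared in 4 fits that share the heifer pools, and the TC values had chosen the 3 miRNAs. For miR-204 the differences were -1.65 (SE 0.30) in TCs at weeks 5 to 6, -1.31 (SE 0.33) in TCs at weeks 9 to 10, -1.40 (SE 0.35) in APCs and -0.77 (SE 0.48) in ANCs. Without ANC replicate 1 the last value was -0.10, and without ANC replicate 2 it was -1.40. The library of low depth was ANC replicate 2. For miR-708 the differences were -2.08 (SE 0.65) in TCs at weeks 5 to 6, -1.09 (SE 0.44) at weeks 9 to 10, -1.37 (SE 0.52) in ANCs and -0.64 (SE 0.48) in APCs. The first of these was -1.38 without the pool with 1 read. For miR-592 the differences were 1.97 (SE 0.43) in TCs at weeks 9 to 10, 1.16 (SE 0.55) in ANCs, 0.49 (SE 0.50) in APCs and 0.32 (SE 0.42) in TCs at weeks 5 to 6. In the APCs this value was 0.00 with library totals in place of TMM.

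The background of these values is how many of all miRNAs limma called against heifers, and nothing is read from it for the 3 miRNAs, which were chosen on the TC and heifer pools. In TCs at weeks 5 to 6 it called 16 of 230 (6.96%), 4 higher and 12 lower (5.22%). That count was 29 with the replicate number as a block and 0 with a covariate for the day on which RNA was measured. In TCs at weeks 9 to 10 limma and edgeR's quasi-likelihood test each called 0 of 227 (0%), although 24 had an unadjusted p-value under 0.05, and DESeq2 called 14. In ANCs limma called 40 of 215 (18.6%) and in APCs 29 of 233 (12.4%). These shares move with single libraries. In TCs at weeks 5 to 6 limma called 0 miRNAs without TC replicate 1, TC replicate 3, heifer replicate 1 or heifer replicate 2, and in ANCs it called 0 without ANC replicate 1. With library totals the split in APCs went from 22 higher and 7 lower to 14 higher and 49 lower, with the median of all tested miRNAs shifted by -0.58, and in TCs at weeks 5 to 6 it went from 4 and 12 to 4 and 22, with a shift of -0.21. miR-204 in APCs stood at -1.94 under that scaling, so that relative to the shift its difference stayed negative.

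**Figure D4:**
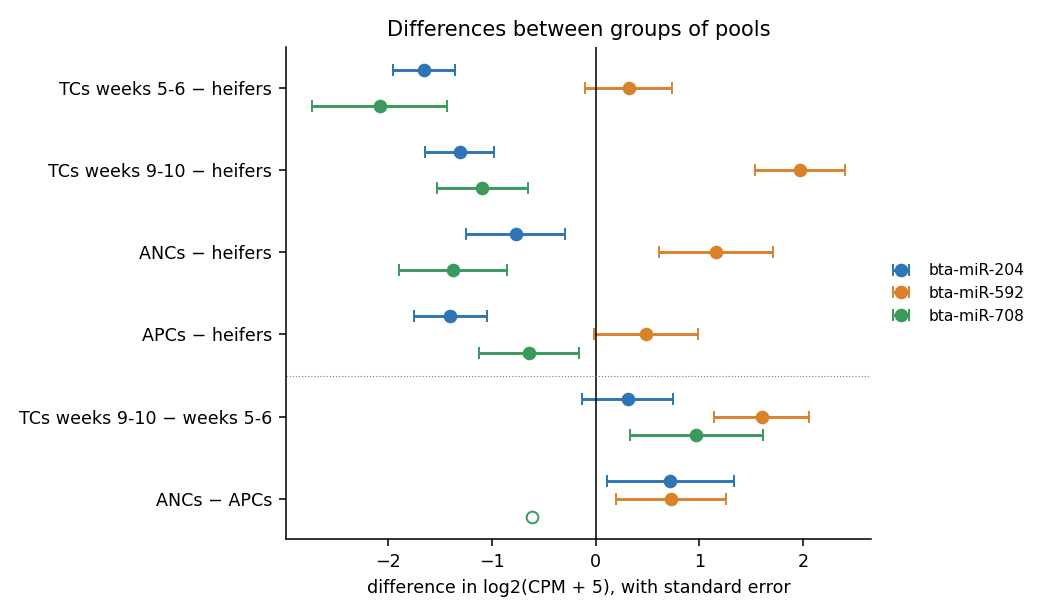
Differences between groups in log2(CPM + 5) with standard errors, each from a fit to the pools of both groups. The upper 4 comparisons are against heifers and share the heifer pools that chose the 3 miRNAs. The comparison between the TC times also uses pools that entered the choice. All of these are a description, and tests are given for ANCs against APCs only. The open circle marks miR-708 there, a value below the filter on low reads, which has no limma test. miR-204 and miR-708 lie on the negative side in all 4 comparisons with heifers, from -2.08 to -0.64, and miR-592 on the positive side, from 0.32 to 1.97.

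Within the days of RNA measurement the signs against heifers stayed for miR-204 and miR-708, but the sizes did not. The day of APC replicate 2 is not given in the sources used here. In TCs at weeks 5 to 6 miR-708 stood at -0.70 among replicates 1 and at -2.76 among replicates 2 and 3, and miR-204 at -1.80 and -1.57. In ANCs miR-204 stood at -1.50 among replicates 1 and at -0.24 with replicate 2. miR-592 in TCs at weeks 5 to 6 stood at -0.04 among replicates 1 and at 0.50 among the others. At weeks 9 to 10 miR-592 was higher than in heifers by 1.60 and 2.07.

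A miRNA with the same seed as miR-204 is miR-211, from an intron of TRPM1, and 1 with the seed of miR-708 is miR-28, from an intron of LPP, itself 758 kb long. miR-211 was listed for the TCs at weeks 5 to 6 alone, with 3, 2 and 5 reads, at or near the floor. miR-28 had 3 to 11 reads per library and was too low for the filter applied to all pools together. It stood at 29.7, 27.5 and 27.0 CPM in heifers, at 10.3, 11.4 and 20.6 CPM in TCs at weeks 5 to 6 and at 21.9, 17.9 and 15.8 CPM at weeks 9 to 10. The ANC pools stood at 15.8 and 26.8 CPM and the APC pools at 17.2 and 10.0 CPM. The 3 heifer pools were thus the highest for miR-28 too, but the edge between 27.0 and 26.8 CPM is narrower than the value of 1 read.

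The miRNAs with the most similar profiles were sought over the 13 pools, by Pearson's r of log2(CPM + 5) among 247 miRNAs. The pools share groups, depth and scaling, and the values are a description. For miR-204 the closest were miR-369-5p (r = 0.84, Spearman's rho = 0.76), miR-1 (r = 0.83, rho = 0.65), a miRNA of striated muscle, and miR-127 (r = 0.77, rho = 0.76), an imprinted miRNA. Over the 10 cow pools alone their r was 0.60, 0.63 and 0.41. For miR-708 the closest were miR-183 (r = 0.81, rho = 0.67), a miRNA of sensory epithelia, miR-155 (r = 0.71, rho = 0.68), which activated leukocytes express, and again miR-1 (r = 0.65, rho = 0.66). Their r over the cow pools was 0.59, 0.32 and 0.15, so that much of the likeness to miR-204 and miR-708 lay in the step between heifers and cows.

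For miR-592 the closest were miR-25 (r = 0.84, rho = 0.73), which lies in an intron of MCM7, miR-19a (r = 0.78, rho = 0.71), of the miR-17-92 cluster, and miR-128 (r = 0.77, rho = 0.85), which lies in introns of R3HDM1 and ARPP21. Here r over the cow pools alone was 0.82, 0.78 and 0.67, little below the value over all pools. miR-25 stood at 37603 to 41059 CPM in TCs at weeks 9 to 10, at 25367 to 31527 CPM at weeks 5 to 6 and at 22896 to 23463 CPM in heifers. It is far more abundant than miR-592, and its levels spanned a much narrower range. miR-19a stood at 143 to 165 CPM in TCs at weeks 9 to 10, at 58.4 to 117 CPM at weeks 5 to 6 and at 74.1 to 82.4 CPM in heifers.

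**Figure D5:**
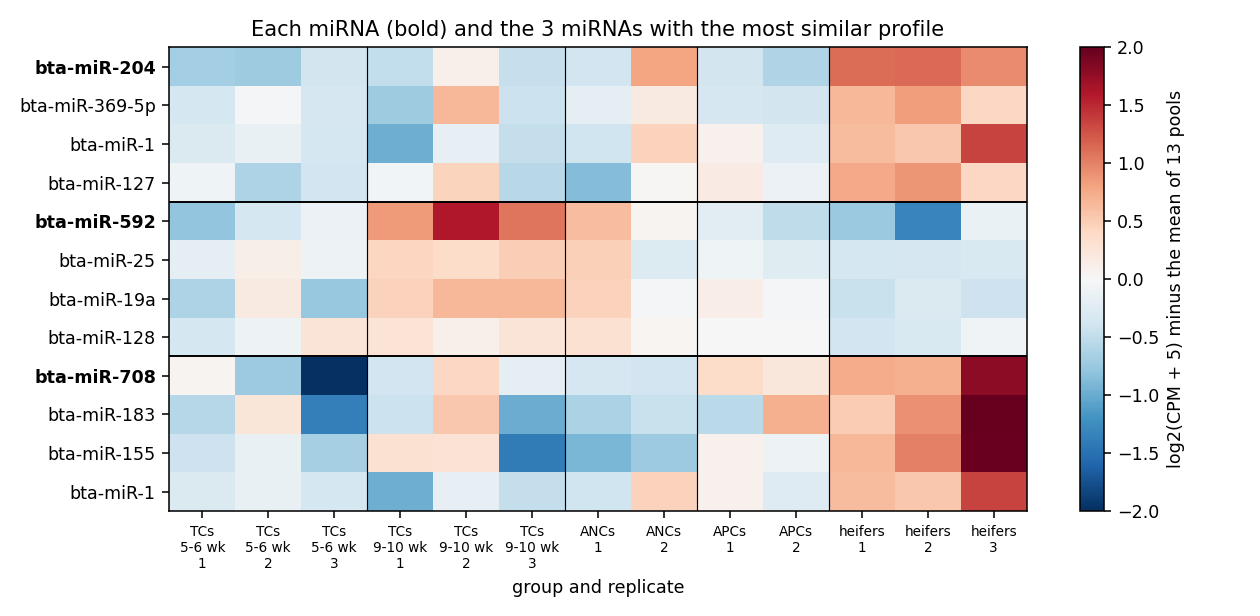
Profiles of miR-204, miR-592 and miR-708 (bold) and of the 3 miRNAs with the highest Pearson's r to each, as log2(CPM + 5) minus the mean of 13 pools, with group and replicate on the horizontal axis. Red is above and blue below the mean, and colours end at 2 in either direction. The blocks of miR-204 and miR-708 are red in the 3 heifer pools. In the 3 TC pools of weeks 9 to 10 miR-592 is red, miR-25 and miR-19a are above their means by less, and miR-128 is near its mean.

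Among themselves the 3 miRNAs were not alike. Over the 13 pools r was 0.55 between miR-204 and miR-708, -0.31 between miR-204 and miR-592 and -0.16 between miR-592 and miR-708. Over the 10 cow pools it was 0.05, 0.31 and 0.17. Between the level of miR-204 and the reads of the library r was -0.42 (rho = -0.22) over all pools and -0.82 (rho = -0.45) over the 10 cow pools. ANC replicate 2 was both the shallowest library and the highest cow pool, and without it, a choice made after seeing the data, r over the other 9 cow pools was -0.36 (rho = -0.25). The part of depth in the level of miR-204 was not tested further.

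Other intronic miRNAs were taken from a list of 70 names, which includes miR-28 and miR-211. Besides miR-28 and miR-211, 54 were listed for a group and 53 lay inside a protein-coding gene of the RefSeq table. Of the tested miRNAs of the whole list, limma called 0 of 44 between ANCs and APCs and 0 of 44 between the TC times. It called 0 of 46 in TCs at weeks 5 to 6 against heifers and 0 of 40 at weeks 9 to 10. Against the median of all tested miRNAs, theirs was -0.02 and -0.01, 0.20 and -0.05, 0.09 and -0.03, and 0.18 and 0.02 in the same order. In ANCs against heifers 2 of 40 were called (5%, beside 18.6% of all tested miRNAs), with a median of 0.28 beside 0.00. These were miR-26a, of the CTDSP genes, which was higher by 1.03 (SE 0.35, limma adjusted p = 0.138), and miR-486, of ANK1 and abundant in erythroid cells, which was lower (log2 difference -2.45, SE 0.83, limma adjusted p = 0.138). In APCs against heifers 7 of 45 were called (15.6%, beside 12.4%), all of them higher, with a median of 0.18 beside 0.03. The largest were miR-502a, of CLCN5 (3.0, SE 0.61, limma adjusted p = 0.0568), and miR-874, of KLHL3 (2.74, SE 0.44, limma adjusted p = 0.0568). miR-502a had 2, 3 and 13 reads in the heifers and 31 and 55 in the APCs.

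Markers of cell types that follicular fluid could hold were measured in the same pools. The 6 leukocyte miRNAs, all listed, summed to 4868 to 6077 CPM in heifers and to 745 to 4820 CPM in the cow pools. Each cow pool was thus below each heifer pool, but the edge between 4820 and 4868 CPM is narrow. The sums were 2762 to 3063 CPM in TCs at weeks 5 to 6, 1573 to 4820 at weeks 9 to 10, 745 to 1580 in ANCs and 2144 to 3971 in APCs, and none of the 6 was at 0 in a pool. Of the 6, only miR-155 and miR-223 are among the 8 miRNAs named above with all cow pools below all heifer pools. The part of leukocyte vesicles in the level of miR-204 and miR-708 was not tested. Of 10 epithelial miRNAs 9 were listed for all groups, and their sums in heifers (17326 to 27145 CPM) lay within those of TCs at weeks 5 to 6 (6462 to 33419 CPM). The hepatocyte miRNA miR-122 stood at 5369 to 17623 CPM in heifers and at 329 to 5858 CPM in cow pools. The erythroid list (2 of 3 listed for all groups, miR-451 at 0 in 1 pool), at 131 to 10962 CPM over all pools, and the muscle list, at 19256 to 44283 CPM, did not separate heifers from cows. The muscle sum was mostly miR-143, at 17169 to 42870 CPM. Of the muscle list, miR-1 alone is among the 8 miRNAs named above with all cow pools below all heifer pools.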

How the data were processed

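Small RNA of follicular fluid EVs was measured in 13 pools, with 1 library per pool and with group and replicate taken from the labels. The authors used the QIAseq miRNA kit, trimmed reads with Cutadapt 1.11, mapped them to UMD3.1 with Bowtie2 2.2.2, annotated them with miRBase and normalized them with TMM (edgeR). Whether reads were collapsed by molecular identifier is not given in the sources used here. The deposited values are TMM-normalized CPM, 1 file per pool. Where the deposited values of a pool sum to more than CPM allows, they were treated as a signal in the same unit, since the authors scaled them by TMM. Libraries of different groups had been scaled in different comparisons by the authors.

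Whole reads were recovered from the steps of the deposited values (all 3681 whole within 0.1 read, 145030 to 421435 reads per library). For each comparison, miRNAs listed for both groups were filtered by their reads (edgeR 4.0.16 filterByExpr, minimum count 10, minimum total 15), scaled with TMM and compared with limma 3.58.1 (trend) on log2(CPM + 5), a scale that understates changes of low miRNAs. For the 3 miRNAs p-values are given for ANCs against APCs only, and a planned test between the TC times is given without p-values, since those pools had entered the choice. Exact permutation tests were two-sided. miRNAs called had an absolute log2 difference of at least 1, p under 0.05 and adjusted p of at most 0.25. The alternatives were edgeR's quasi-likelihood test and DESeq2 1.42.0 on the recovered reads, a pseudocount of 1, no filter, library totals, DESeq2 size factors, the deposited values as they stand, 1 fit of all 13 pools, the replicate number as a block, a covariate for the day on which RNA was measured and leaving out each pool. R 4.3.3, Python 3.11.15 and scipy 1.17.1 were used, and the procedures were tested on simulated data.

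The replicate numbers of the labels were checked by correlating, between pools of 1 number, what remained after subtracting the group mean. For TCs at weeks 5 to 6 and heifers these were 0.216, 0.377 and 0.385, so the numbers were taken to pair these pools. The main fit of TCs at weeks 5 to 6 against heifers left this pairing out, and the block by replicate number is given as an alternative. In the other comparisons the replicate numbers were not taken to pair pools. They still stood for the day of RNA measurement where that is given, and the block by number was run there as an alternative too.

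The 3 miRNAs, the list of intronic miRNAs and the marker lists were chosen with earlier results of these data known. Besides the 3, the text names miRNAs with the same seed, the 3 with the highest Pearson's r to each, the other members of a count of few, and of the intronic list the called miRNAs with the largest changes against heifers, up to 2 in each direction. Where a group's list lacks a miRNA, its level there was taken as unknown. Sequences of the miRNAs were not used here.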

Additional observations from a re-analysis of the deposited data

How the results depend on the processing

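Of 270 alternatives tried for the 18 differences of the 3 miRNAs, 269 kept the sign, and the exception was miR-592 in APCs against heifers at 0.00 with library totals. The splits by day of RNA measurement are not in that tally, and among replicates 1 they turned the sign of miR-708 between the TC times (-0.43), of miR-592 in TCs at weeks 5 to 6 against heifers (-0.04) and of miR-204 in ANCs against APCs (-0.01). With few reads and 2 or 3 pools per group, the numbers of miRNAs called moved far more than the differences. ANCs against APCs had 0 calls, 6 with DESeq2, 28 with the replicate block and 0 to 36 with 1 pool left out (21 without ANC replicate 2, 36 without APC replicate 1, 7 without APC replicate 2). In that comparison miR-708 stood at -0.61, at -0.26 with library totals and between -0.72 and -0.51 with 1 pool left out. Between the TC times there were 0 calls, 1 with DESeq2 and 0 to 22 with 1 pool left out, the 22 without TC replicate 2 of weeks 5 to 6. There miR-592 stood at 1.60, at 1.73 with DESeq2 and between 1.38 and 1.82 with 1 pool left out. TCs at weeks 5 to 6 against heifers had 16 calls, 36 with DESeq2, 26 with library totals, 29 with the replicate block, 0 with a covariate for the day on which RNA was measured and 0 to 46 with 1 pool left out, the 46 without TC replicate 2 and 29 without heifer replicate 3. For miR-204 in that comparison the value was -1.65, -1.85 with library totals and between -1.72 and -1.47 with 1 pool left out. TCs at weeks 9 to 10 against heifers had 0 calls, 14 with DESeq2, 6 with library totals, 7 with the replicate block, 4 with all 13 pools in 1 fit and 0 to 25 with 1 pool left out, the 25 without TC replicate 2. ANCs against heifers had 40 calls, 65 with the replicate block and 0 to 54 with 1 pool left out (6 without heifer replicate 1, 17 without heifer replicate 2), and miR-204 lay between -1.40 and -0.10. APCs against heifers had 29 calls, 63 with library totals, 49 with the deposited values as they stand and 3 to 48 with 1 pool left out, the 3 without heifer replicate 1 and 45 to 48 without either APC pool or heifer replicate 3. There miR-204 stood at -1.40, at -1.94 with library totals, -1.73 with the deposited values, -1.55 with all 13 pools in 1 fit and between -1.56 and -1.25 with 1 pool left out. The correlations of miR-592 with miR-204 and with miR-708 turned from -0.31 and -0.16 to 0.31 and 0.17 without the heifer pools. Library totals shifted the median of all tested miRNAs by 0.40 between ANCs and APCs and by 0.24 between the TC times, and miR-592 then stood at 1.09 and 1.83. The cause of these changes was not tested. Same-numbered pools correlated at 0.216 for ANCs and APCs, a single value, since with 2 pools per group both numbers must give the same. For the TC times they correlated at -0.011, -0.035 and 0.103. The block in both comparisons rests on the replicate numbers, which for the TC times also follow the day on which RNA was measured. Where a pool left out leaves a group of 1, that pool is assumed to vary like the other group.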
